A study of Mus musculus with 338 samples.

Results

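The response of pancreatic islets to an early dietary challenge was examined in 129S2/SvPas mice at day 2 of a High Fat, High Sugar (HFHS) diet, against mice of the same strain and time point on Regular Chow (RC). Bulk RNA of isolated islets was sequenced, with 1 library per mouse. The labels place 18 libraries in these groups. The 13 used here are HFHS mice 6HF1, 6HF2, 6HF3, 6HF4, 6HF84, 6HF85, 6HF86 and 6HF90 (8 libraries) and RC mice 6RC1, 6RC3, 6RC4, 6RC75 and 6RC78 (5 libraries), out of 338 libraries of 6 inbred strains in the whole series. Mice 6HF5, 6HF6, 6RC2, 6RC5 and 6RC6 were left out because their levels of 4 genes that depend on the strain lay outside those of the other 13, on the side of C57Bl/6J. The members were thus chosen by the measured levels of Col6a6, Gdpd3, Tdrd6 and Nnt, which are given only as a description. Age and sex are not stated in the sources used here, and the mice carry no labelled mutation or transgene. Day 2 was set beside the other 47 libraries of 129S2/SvPas, 6, 7 and 10 on HFHS and 5, 8 and 11 on RC at days 10, 30 and 90. It was also set beside the day 2 libraries of C57Bl/6J (6 HFHS, 6 RC), DBA/2J (6 HFHS, 6 RC) and AKR/J (6 HFHS, 5 RC).

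Gdpd3 showed the division most plainly, at 21.6 to 45.9 CPM (counts of a gene scaled to a common total of reads assigned to genes) in the 13 libraries used and 0.544 to 2.85 CPM in the 5 left out. Tdrd6 stood at 6.96 to 11.8 CPM in the libraries used and 0.168 to 0.544 CPM in those left out. Nnt, a mitochondrial transhydrogenase that is partly deleted in C57BL/6J mice, had a median of 108.8 CPM in the libraries used, the highest being 127.9, and stood at 50.5 to 63.8 CPM in those left out. Col6a6 was the closest of the 4 to its boundary, with 1.55 to 8.03 CPM in the libraries used and 12.7 to 78.2 CPM in those left out. In the 12 day 2 libraries labelled C57Bl/6J, Col6a6 ran from 61.8 to 117.7 CPM and Gdpd3 from 0.823 to 1.64 CPM. Nnt stood there at 33.8 to 41.2 CPM, so the 5 libraries left out lay between the groups for Nnt, and 4 of them did for Col6a6.

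Islets are clusters of endocrine cells in the pancreas, in which beta cells release insulin, alpha cells glucagon, delta cells somatostatin and PP cells pancreatic polypeptide. In beta cells, glucose metabolism closes ATP-sensitive potassium channels, the membrane depolarizes, and calcium and cyclic AMP (cAMP) both drive insulin release and switch on immediate early genes through the factor CREB. Such genes also respond quickly when a tissue is handled. Dietary fat supplies fatty acids, which activate PPAR receptors and with them genes of fatty acid oxidation, while high insulin demand loads the endoplasmic reticulum (ER), where proinsulin folds.

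The 13 libraries were deep and similar in depth, with 19841218 to 33936085 reads assigned to genes, so a gene with no read lies below 3 counts, or at most 0.151 CPM (counting error only). Ins1 and Ins2 together took 17.3 to 25.8% of these reads, against 0.246 to 7.01% in the 5 libraries left out. Summed over 24 beta cell genes, the 5 left out had 56800 to 133000 CPM and the 13 used had 215500 to 310200 CPM. The islet label thus holds for the 13, and it was not tested for the 5. One library stands apart: in 6HF1, 292 genes exceeded 4 times the highest of the other 12 libraries, and they summed to 16410 CPM. Among them Sis, the sucrase-isomaltase of the intestinal brush border, reached 675 CPM, and Gip, a hormone of intestinal K cells, reached 35.01 CPM with no read in the other 12. A list of 18 small intestine genes, drawn up after these values were seen, summed to 5999 CPM in 6HF1, 244 in 6HF2, 113.2 in 6HF86 and 52.2 in 6RC4, and to at most 9.87 CPM in the other 9. Lymphocyte genes summed to 428 CPM in 6HF86 and 309 CPM in 6HF1, and to at most 95.6 CPM elsewhere. Stellate cell and fibroblast genes summed to 2215 CPM in 6RC75 and 2160 CPM in 6RC78, and to at most 1330 CPM elsewhere. RC mouse 6RC4 carried 2.41 CPM of H2-Ea-ps, against at most 0.118 CPM in the other 12, and 12.7 CPM of C530028O21Rik, against at most 4.00 CPM, both genes that are high in DBA/2J, BALB/cJ, A/J and AKR/J. Results that rest on 6HF1 are given below with and without it.

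**Figure D1:**
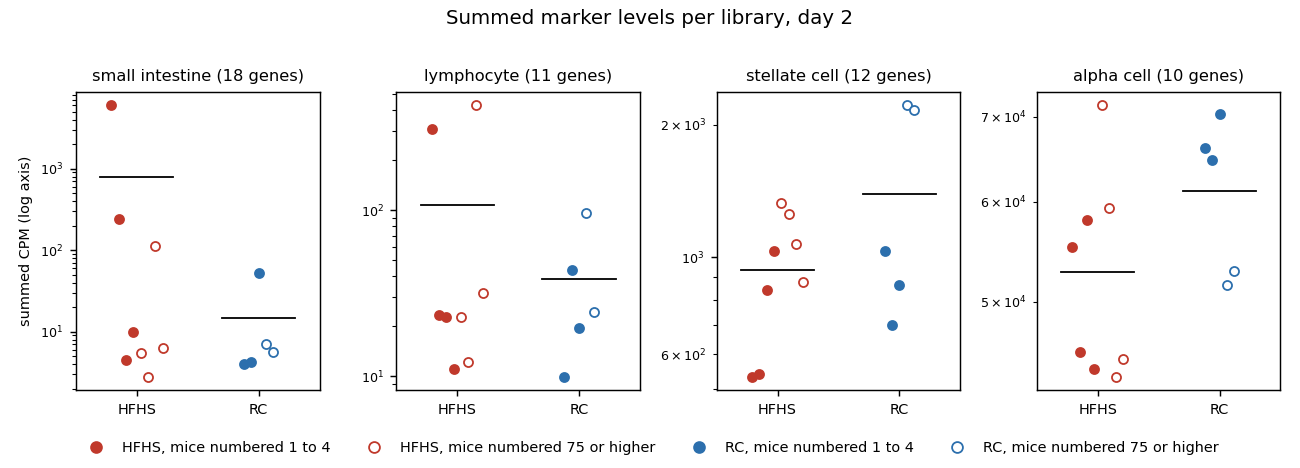
Summed level (CPM, log axis) of small intestine, lymphocyte, stellate cell and alpha cell marker lists, 1 point per library, HFHS left of RC, filled for mice numbered 1 to 4 and open for mice numbered 75 or higher. The small intestine sum of 6HF1 is 5999 CPM, and the stellate cell sums of 6RC75 and 6RC78, 2215 and 2160 CPM, lie above all others.

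At day 2 the islets of HFHS mice had higher estimated levels of activity-induced genes (Sik1, Nr4a1, Npas4, Plk3), of splicing factors (Rbm25, Clk4, Srsf11) and of the nucleolar proteins Nop58 and Nop56. They had lower estimated levels of the glucocorticoid-induced genes Fkbp5 and Zbtb16, of Trib3, and of the endothelial genes Clec14a and Sox18. A wider list of glucocorticoid-responsive genes held 7 higher and 7 lower estimates, and the sum of endothelial markers overlapped between the diets. Insulin and the other islet hormone genes overlapped between the diets. None of these differences passed an adjusted p of 0.05 in edgeR's quasi-likelihood test over 14633 genes, where 0 genes were called (0%). The lowest adjusted p, 0.235, was shared by 24 genes. At an unadjusted p under 0.05, 1134 genes (7.75%) stood apart, 613 higher (4.19%) and 521 lower (3.56%) on HFHS. DESeq2's Wald test on the same counts called 62 genes (0.424%), 32 higher and 30 lower, and 37 without 6HF1, of which 35 were among the 62. In 71 of the 14633 genes (0.485%) the values of the 2 diets did not overlap. Because edgeR called nothing, genes below are given by value, and "higher" or "lower" describes the estimate alone. Fold changes are log2 HFHS minus RC with their standard error (SE), and gene levels in these 13 libraries are CPM scaled by TMM, which corrects for differences in library composition.

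For Sik1, Nr4a1 and Npas4, 7 of 8 HFHS mice lay above every RC mouse. Sik1, a kinase that CREB induces and that in turn restrains CREB's coactivators, ran from 8.58 to 21.8 CPM in HFHS mice (median 16.1) and was 6.13, 4.16, 7.94, 7.31 and 9.05 CPM in RC mice. All HFHS mice but 6HF90 lay above every RC mouse, and the log2 difference was 1.21 (SE 0.23), with an adjusted p of 0.235 by edgeR and 0.000303 by DESeq2. Nr4a1, an orphan nuclear receptor and immediate early gene, ran from 8.66 to 60.6 CPM in HFHS mice (median 23.9) and was 8.36, 5.29, 7.90, 5.54 and 9.89 CPM in RC mice. Again only 6HF90 fell inside the RC range, while 6HF4 and 6HF86 were highest at 60.6 and 54.6 CPM. Its log2 difference was 1.95 (SE 0.44, edgeR adjusted p 0.325, DESeq2 adjusted p 0.00523). Npas4, a transcription factor that depolarization induces, ran from 0.621 to 2.81 CPM in HFHS mice (median 1.36) and was 0.714, 0.699, 0.484, 0.467 and 0.229 CPM in RC mice, with 6HF85 the one inside the RC range. Its log2 difference was 1.52 (SE 0.33, edgeR adjusted p 0.240). Plk3, a stress-responsive polo-like kinase, ran from 33.5 to 51.1 CPM in HFHS mice (median 41.5) and was 30.6, 28.5, 30.2, 25.2 and 31.7 CPM in RC mice. The 2 groups did not overlap, and the log2 difference was 0.50 (SE 0.09, edgeR adjusted p 0.235). Sik1, Npas4, Plk3 and Fosl2 were named after their values were seen.

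The AP-1 subunit genes were less even. Fosl2 ran from 14.2 to 22.8 CPM in HFHS mice (median 17.2) and was 13.4, 9.55, 12.5, 13.7 and 15.6 CPM in RC mice, with 7 HFHS mice above the RC range. Fos ran from 6.25 to 44.9 CPM in HFHS mice (median 15.8) and was 3.57, 4.79, 7.90, 10.7 and 16.3 CPM in RC mice, so that 4 HFHS mice overlapped RC. Myc, a growth-promoting transcription factor, ran from 8.03 to 20.2 CPM in HFHS mice (median 10.1) and was 7.94, 7.16, 7.53, 7.14 and 7.06 CPM in RC mice. The diets did not overlap for Myc, though 6 of the HFHS mice stood at or below 11.7 CPM and the 2 highest, 6HF86 and 6HF4, at 20.2 and 19.2 CPM. Of 20 activity-induced genes (a list drawn up after the values were seen) 18 were tested and 17 had a positive log2 fold change (94.4%, against 52.5% of all genes tested), with a median of 0.40 against 0.01. Without 6HF1 it was 16 of 18, with the same median. As the list was chosen with the values known, its share describes that choice and is no test. None of the 18 was called, and 8 were at an unadjusted p under 0.05, all higher, against 4.19% of all genes tested. Genes of immediate early response and of stress during isolation, a list that shares members with it, were positive in 15 of 18 tested (median 0.32), and in 14 of 18 without 6HF1, with 0 called and 5 at an unadjusted p under 0.05, all higher. Among them Dnajb1, a co-chaperone of the heat shock response, had a log2 difference of 0.35 (SE 0.15, unadjusted p 0.0315), and the part of islet handling in these differences was not tested.

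The promoters of 3 of these genes are shown because they belong to the activity-induced genes just described and hold matches to the short site of the cAMP response element, through which CREB acts. The sequences are from RefSeq on build GRCm38.p6, from 250 bases before to 50 after each gene's start and in the direction of the gene. Capitals mark TGACG or its reverse complement on either strand. Nr4a1 lies at chr15:101266596-101266895 on the plus strand and holds 4 matches. Npas4 lies at chr19:4989922-4990221 on the minus strand and holds 2. Plk3 lies at chr4:117133914-117134213 on the minus strand and holds 2.
Nr4a1: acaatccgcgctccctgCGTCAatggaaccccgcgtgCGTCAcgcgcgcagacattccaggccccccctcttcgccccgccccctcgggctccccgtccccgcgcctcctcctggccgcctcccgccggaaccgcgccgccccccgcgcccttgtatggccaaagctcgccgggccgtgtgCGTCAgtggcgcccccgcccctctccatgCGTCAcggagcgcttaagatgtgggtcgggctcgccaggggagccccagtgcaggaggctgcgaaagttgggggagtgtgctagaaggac
Npas4: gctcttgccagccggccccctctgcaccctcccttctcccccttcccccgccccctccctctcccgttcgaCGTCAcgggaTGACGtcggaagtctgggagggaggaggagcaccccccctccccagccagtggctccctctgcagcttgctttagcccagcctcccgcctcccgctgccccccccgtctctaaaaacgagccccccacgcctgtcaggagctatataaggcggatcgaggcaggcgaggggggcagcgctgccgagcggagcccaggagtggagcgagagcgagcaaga
Plk3: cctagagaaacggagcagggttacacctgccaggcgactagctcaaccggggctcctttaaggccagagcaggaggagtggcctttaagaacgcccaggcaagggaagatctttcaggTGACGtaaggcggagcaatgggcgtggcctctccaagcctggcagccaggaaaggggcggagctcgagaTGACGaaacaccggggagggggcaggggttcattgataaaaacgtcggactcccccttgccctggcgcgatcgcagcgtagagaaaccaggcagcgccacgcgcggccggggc
The full element, TGACGTCA, was present in 2 of the 16 activity-induced genes with a promoter (Dusp1 and Pcsk1) and in 2.03% of the promoters of all 27025 genes. The short site TGACG, searched after the full element and contained in it, was present in 14 of 16 and in 23% of all promoters. The list was drawn up as known targets of CREB, so these shares are a description of that choice. These matches describe letters in a window and not binding. The share over all promoters, here and below, also counts genes that were not tested in these islets. It is thus not taken over genes like those of the lists, and no difference of shares was tested.

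**Figure D2:**
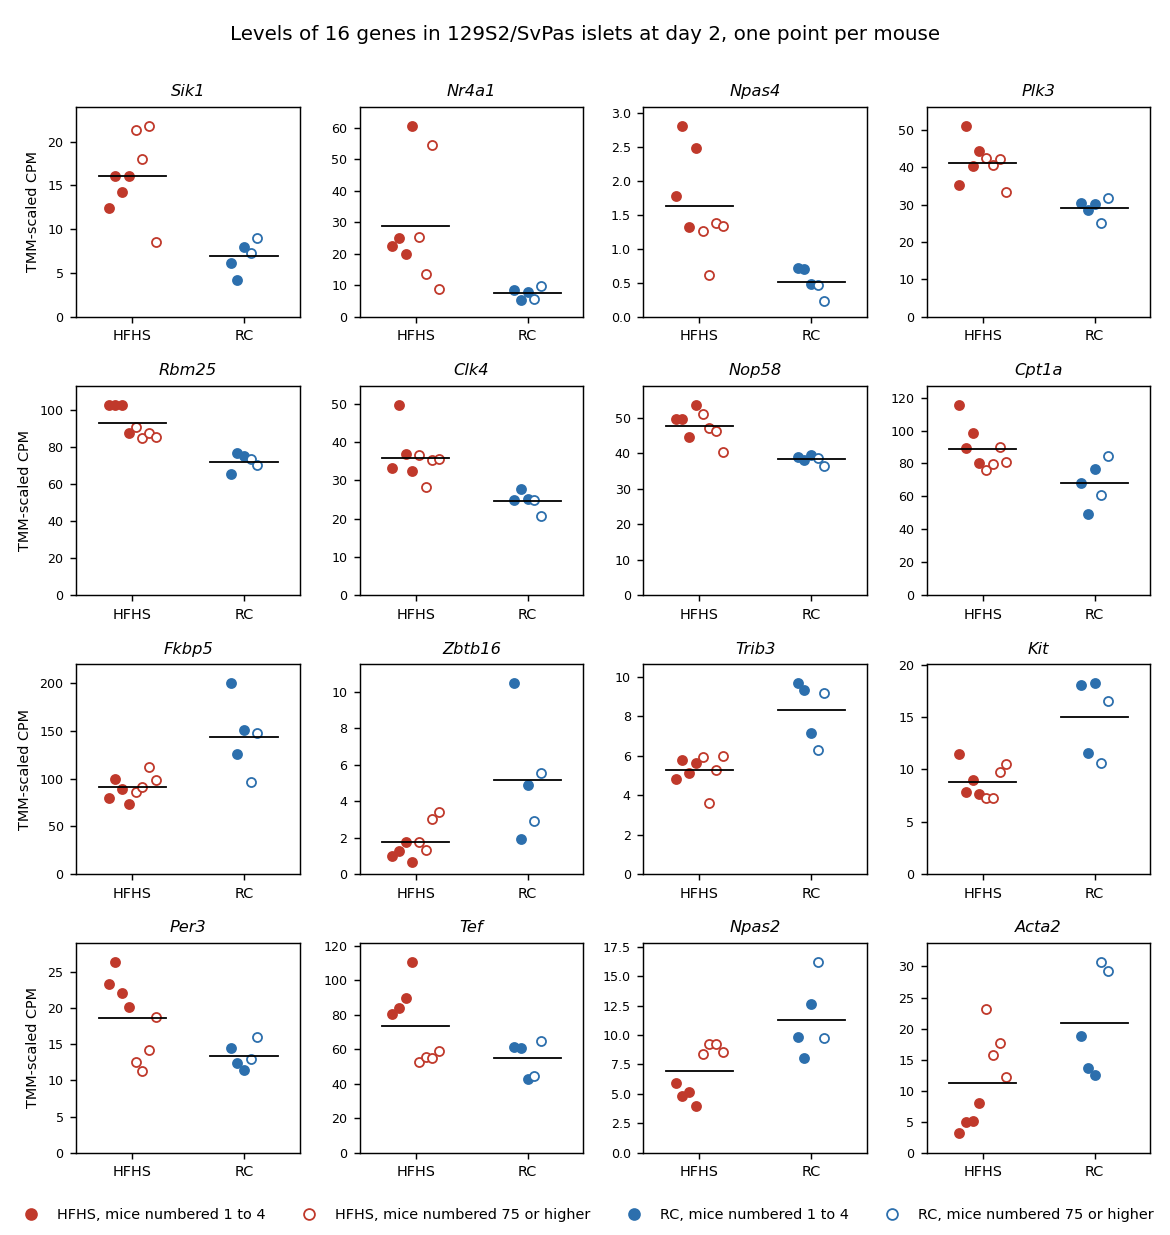
Levels (TMM-scaled CPM) of 16 genes, 1 point per mouse, HFHS left of RC, filled for mice numbered 1 to 4 and open for mice numbered 75 or higher. The diets do not overlap for Plk3, Rbm25, Clk4, Nop58 and Trib3, and the filled HFHS points stand apart from all others for Per3, Tef, Npas2 and Acta2.

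Most listed genes of pre-mRNA splicing had higher estimates on HFHS. Rbm25, a splicing regulator of nuclear speckles, ran from 85.01 to 102.7 CPM in HFHS mice (median 89.3) and was 65.2, 76.7, 74.9, 73.5 and 70.1 CPM in RC mice. The diets did not overlap, and the log2 difference was 0.37 (SE 0.07, edgeR adjusted p 0.235, DESeq2 adjusted p 0.000339). Clk4, a kinase that phosphorylates serine/arginine-rich splicing factors, ran from 28.2 to 49.8 CPM in HFHS mice (median 35.5) and was 24.9, 27.8, 25.2, 25.02 and 20.7 CPM in RC mice. These groups did not overlap either, with 6HF2 highest, and the log2 difference was 0.54 (SE 0.11). Srsf11, itself a serine/arginine-rich factor, ran from 98.8 to 123.5 CPM in HFHS mice (median 100.9) and was 88.4, 90.4, 83.3, 85.9 and 81.7 CPM in RC mice, again without overlap. Luc7l2, a protein of the U1 particle, had a median of 144.4 CPM in HFHS mice and 127.6 CPM in RC mice, with a log2 difference of 0.24 (SE 0.06), also without overlap. Ccnl1 and Clk1 had log2 differences of 0.35 (SE 0.07) and 0.40 (SE 0.11), with 7 and 6 of 8 HFHS mice above the RC range. Of a list of 28 splicing and speckle genes, 27 had a positive log2 fold change (96.4%, against 52.5% of all genes tested). The list was drawn up after these values were seen, and its median was 0.20. It held 0 called genes and 15 at an unadjusted p under 0.05, all higher, against 4.19% of all genes tested. The log2 fold changes of the list ran from -0.03 to 1.02. Its summed levels overlapped, at 2696 to 4262 CPM in HFHS mice and 2760 to 3283 CPM in RC mice. Without 6HF1 the count was again 27 of 28, with a median of 0.19. This list too was chosen with the values known, so its count is no test.

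Adding the left-out libraries turned the direction of the named splicing genes. Their list summed to 2696 to 4262 CPM in the 8 HFHS libraries and 2760 to 3283 CPM in the 5 RC libraries used, which overlap, and to 5334 to 12360 CPM in the 5 libraries left out. With all 18 libraries as labelled the log2 difference was -0.33 for Rbm25, -0.52 for Clk4, -0.40 for Srsf11, -0.33 for Luc7l2, -0.46 for Ccnl1 and -0.74 for Clk1. The slope of log2 counts on gene GC content, which was between -3.18 and -1.01 per 10 percentage points in the libraries left out, was at most 0.0963 in size in the 13. Within the 13, a GC curve fitted per library left Rbm25 at 0.35 and Clk4 at 0.52. Any further part of RNA quality in these differences was not tested.

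Ribosome biogenesis genes followed the same direction. Nop58, a core protein of the box C/D small nucleolar particles, ran from 40.3 to 53.7 CPM in HFHS mice (median 48.4) and was 38.9, 38.1, 39.7, 38.6 and 36.4 CPM in RC mice. The diets did not overlap, and the log2 difference was 0.32 (SE 0.06, edgeR adjusted p 0.235). Nop56, its partner in those particles, ran from 24.6 to 31.5 CPM in HFHS mice (median 28.1) and was 22.7, 24.4, 24.4, 23.7 and 21.8 CPM in RC mice, without overlap. Gnl3, the nucleolar GTPase nucleostemin, had a log2 difference of 0.32 (SE 0.08), with 7 of 8 HFHS mice above the RC range. All 20 genes of the list, which was also drawn up after the values were seen, had a positive log2 fold change, with a median of 0.12 and 0 called, and so they did without 6HF1. That count likewise describes the choice of the list and is no test.

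A pair of enzyme genes, named after their values were seen, also stood higher. Fbp2, a fructose-bisphosphatase of the gluconeogenic pathway, ran from 2.94 to 34.6 CPM in HFHS mice (median 5.30) and was 2.19, 1.86, 2.06, 1.84 and 2.71 CPM in RC mice. The diets did not overlap, and the highest value by far was that of 6HF1, the library with the intestinal genes. The log2 difference was 1.97 (SE 0.60) with 6HF1 and 1.14 without it (edgeR adjusted p 0.506 and 0.233). DESeq2 on all 13 libraries gave 1.14 (adjusted p 0.000146). Its default settings replace counts flagged as outliers in a group as large as the HFHS one. That estimate may thus not hold the 6HF1 count as measured, which was not checked. Aldh9a1, an aldehyde dehydrogenase of carnitine synthesis, ran from 91.0 to 126.8 CPM in HFHS mice (median 110) and was 84.6, 86.2, 84.5, 86.8 and 96.1 CPM in RC mice, with a log2 difference of 0.33 (SE 0.07).

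Among genes lower on HFHS, Fkbp5, a co-chaperone of the glucocorticoid receptor that glucocorticoids themselves induce, ran from 73.8 to 112.3 CPM in HFHS mice (median 90.6) and was 200, 125.7, 150.5, 96.9 and 147.8 CPM in RC mice. Only 6RC75 fell inside the HFHS range, and the log2 difference was -0.66 (SE 0.14, edgeR adjusted p 0.235, DESeq2 adjusted p 0.00523). Zbtb16, a transcriptional repressor also induced by glucocorticoids, ran from 0.664 to 3.42 CPM in HFHS mice (median 1.52) and was 10.5, 1.93, 4.92, 2.94 and 5.54 CPM in RC mice, with 6RC1 highest. Its log2 difference was -1.48 (SE 0.41, edgeR adjusted p 0.437), and it was -2.22 among mice numbered 1 to 4 and -0.79 among mice numbered 75 or higher. The metallothionein genes Mt1 and Mt2, which zinc and glucocorticoids induce, had log2 differences of -0.38 (SE 0.15) and -0.46 (SE 0.16), and both overlapped between the diets. A list of 14 glucocorticoid-responsive genes, drawn up after the values were seen, did not move one way: 7 had a negative log2 fold change and 7 a positive one, and Dusp1 (0.39, SE 0.15) was on the other side.

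Trib3, a pseudokinase gene of the integrated stress response, ran from 3.62 to 5.98 CPM in HFHS mice (median 5.45) and was 9.66, 9.35, 7.17, 6.31 and 9.20 CPM in RC mice. The diets did not overlap, and the log2 difference was -0.65 (SE 0.14, edgeR adjusted p 0.235, DESeq2 adjusted p 0.00720). Kit, a receptor tyrosine kinase, ran from 7.23 to 11.5 CPM in HFHS mice (median 8.43) and was 18.1, 11.6, 18.2, 10.6 and 16.5 CPM in RC mice, with a log2 difference of -0.75 (SE 0.16). Msi1, an RNA-binding protein, ran from 6.12 to 7.48 CPM in HFHS mice (median 6.93) and was 10.1, 8.49, 9.03, 9.91 and 8.97 CPM in RC mice, without overlap. Accn1, an acid-sensing ion channel subunit, ran from 6.04 to 9.25 CPM in HFHS mice (median 7.42) and was 11.1, 10.9, 10.3, 9.37 and 12.7 CPM in RC mice, without overlap. Tle1, a corepressor of the Groucho family, ran from 33.9 to 42.2 CPM in HFHS mice (median 35.2) and was 59.2, 42.5, 48.9, 42.8 and 43.2 CPM in RC mice, and it did not overlap by a narrow margin, 42.2 in 6HF86 against 42.5 in 6RC3. Rxra, the shared partner of PPAR and other nuclear receptors, had a log2 difference of -0.33 (SE 0.08), and that of the secreted complement subunit C8b was -0.53 (SE 0.11), each with 7 of 8 HFHS mice below the RC range.

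Genes of vessels were lower as well. Clec14a, a lectin of endothelial cells, ran from 22.7 to 29.8 CPM in HFHS mice (median 27.6) and was 34.0, 31.95, 35.9, 35.6 and 39.0 CPM in RC mice, without overlap. Sox18, a transcription factor of endothelial cells, ran from 14.7 to 23.2 CPM in HFHS mice (median 19.7) and was 33.4, 26.1, 23.7, 26.7 and 26.2 CPM in RC mice, also without overlap. Their log2 differences were -0.41 (SE 0.08) and -0.48 (SE 0.10), and that of Thbs1, a matrix protein that restrains vessel growth, was -0.43 (SE 0.09). These 3 and Kit, Msi1 and C8b were named after their values were seen. Of 12 endothelial markers all had a negative log2 fold change (median -0.12, and 10 of 12 without 6HF1) and 0 were called. Their sum ran from 743 to 1037 CPM in HFHS mice (median 859) and was 931, 816, 887, 1113 and 1048 CPM in RC mice, so the diets overlapped, with a two-sided exact permutation p of 0.128 over the 1287 splits of 13 into 8 and 5. In bulk islets, fewer cells of a type and less RNA per cell cannot be told apart.

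Genes of fatty acid oxidation leaned upward. Cpt1a, which admits long-chain fatty acids into mitochondria, ran from 76.2 to 115.6 CPM in HFHS mice (median 85.4) and was 68.3, 49.2, 76.9, 60.8 and 84.6 CPM in RC mice, so that 4 of 8 HFHS mice lay above the RC range. Its log2 difference was 0.39 (SE 0.13, edgeR adjusted p 0.510), and it was 0.57 among mice numbered 1 to 4 and 0.19 among mice numbered 75 or higher. Acadvl, the very long-chain acyl-CoA dehydrogenase, ran from 72.3 to 97.5 CPM in HFHS mice (median 84.8) and was 73.5, 74.3, 69.4, 65.7 and 72.2 CPM in RC mice. Only 6HF90 fell inside the RC range, with a log2 difference of 0.24 (SE 0.07). Pdk4, which turns pyruvate away from oxidation, had a log2 difference of 0.38 (SE 0.14). Hadhb of the mitochondrial trifunctional protein, the carnitine carrier Slc25a20 and the electron carrier Etfa had log2 differences of 0.23 (SE 0.08), 0.24 (SE 0.09) and 0.19 (SE 0.08). Of 27 fatty acid oxidation genes and PPAR targets tested, 24 had a positive log2 fold change (88.9%, against 52.5% of all genes tested). The median was 0.18, and 0 were called. At an unadjusted p under 0.05 there were 7, all higher, against 4.19% of all genes tested. Without 6HF1, 20 of 27 had a positive log2 fold change (median 0.12). None of the 22 of these genes with a promoter held an exact match, on either strand, to the direct repeat bound by PPAR with RXR, which 0.0481% of all promoters held.

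Related groups had smaller medians. Of 25 oxidative phosphorylation genes 24 had a positive log2 fold change (96%, against 52.5% of all genes tested). The median, however, was 0.09, and none was at an unadjusted p under 0.05. In cholesterol synthesis and uptake, 16 of 24 had a positive log2 fold change (66.7% against that 52.5%, median 0.11) with 0 called. Its lowest p-values belonged to Insig1, the ER protein that holds back the sterol sensor, to the synthesis enzymes Dhcr7 and Cyp51, and to Sqle, an early step of the sterol branch, with log2 differences of 0.20 (SE 0.06), 0.20 (SE 0.06), 0.26 (SE 0.09) and 0.15 (SE 0.06). The E-box CACGTG, read on both strands, was present in 5 of the 16 of these genes with a promoter and in 8.09% of all promoters, and the sterol element TCACNCCAC in 0 of 16 against 1.44%.

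Most listed genes of ER stress and protein folding leaned upward, and Trib3 was among the 4 with a negative log2 fold change. Hspa5, the chaperone BiP, ran from 1851 to 2617 CPM in HFHS mice (median 2255) and was 1571, 2104, 1767, 1970 and 1616 CPM in RC mice. The diets overlapped, and the log2 difference was 0.30 (SE 0.10, edgeR adjusted p 0.536). Dnajb9, a co-chaperone of BiP, had a log2 difference of 0.36 (SE 0.12). Edem1 and Syvn1, which direct misfolded proteins to degradation, had log2 differences of 0.20 (SE 0.06) and 0.25 (SE 0.09). Of 25 ER genes 21 had a positive log2 fold change (84%, against 52.5% of all genes tested, median 0.08), and 0 were called. At an unadjusted p under 0.05, 6 were higher and 1 lower.

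**Figure D3:**
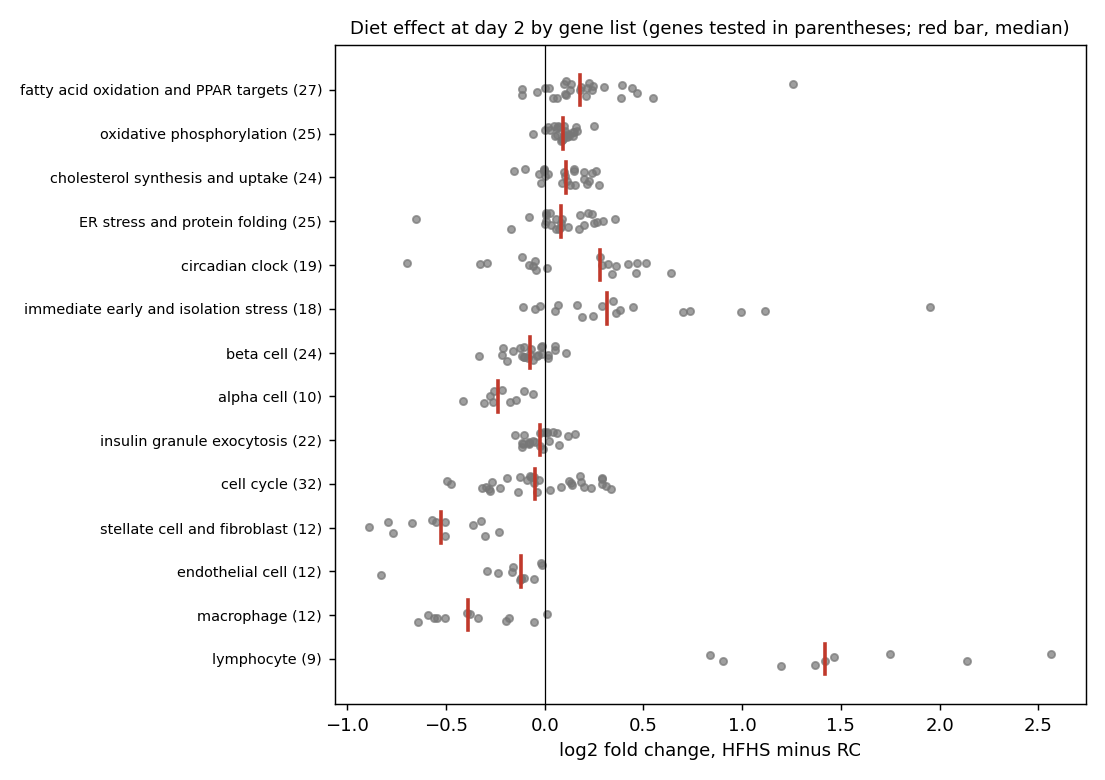
Log2 fold change (HFHS minus RC) of every tested gene in 14 lists, 1 point per gene, with the number of genes in parentheses and a red bar at the median. Fatty acid oxidation (median 0.18) lies mostly above 0, stellate cell genes (median -0.53) and alpha cell genes (median -0.24) lie below it, and the lymphocyte genes (median 1.42) are those whose sum is highest in 6HF86 and 6HF1.

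Levels of several circadian clock genes followed the mouse numbers among HFHS mice. RC mice with low and with high numbers overlapped for Tef, Per3 and Npas2. Tef, an output transcription factor of the clock, was 80.6, 84.2, 89.7 and 110.6 CPM in HFHS mice 6HF1 to 6HF4 and 52.7, 55.8, 55.0 and 59.0 CPM in 6HF84, 6HF85, 6HF86 and 6HF90. In RC mice it was 61.3, 60.7, 42.6, 44.6 and 64.8 CPM. The 4 HFHS mice with low numbers thus lay above all other mice, and the 4 with high numbers lay inside the RC range. Per3, a repressor of the clock, ran from 20.1 to 26.3 CPM in HFHS mice 6HF1 to 6HF4, from 11.2 to 18.8 CPM in the other HFHS mice, and from 11.4 to 15.96 CPM in RC mice. Npas2, an activator of the clock, ran the opposite way, from 3.98 to 5.94 CPM in HFHS mice 6HF1 to 6HF4, from 8.37 to 9.25 CPM in the other HFHS mice and from 8.05 to 16.2 CPM in RC mice.

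Within mice numbered 1 to 4 the log2 diet difference was 0.73 for Tef, 0.84 for Per3 and -1.02 for Npas2. Within mice numbered 75 or higher it was 0.04 for Tef, -0.0036 for Per3 and -0.53 for Npas2. Over all 13 libraries it was 0.42 (SE 0.19) for Tef, 0.47 (SE 0.19) for Per3 and -0.70 (SE 0.22) for Npas2, and no clock gene was called. The difference between the 2 sets of numbers was not tested, and what the numbers stand for is not stated in the sources used here. Bhlhe40 and Per2, which repress the same loop, had log2 differences of 0.46 (SE 0.13) and 0.32 (SE 0.10), with 6 of 8 HFHS mice above the RC range for each. Of 19 clock genes 11 had a positive log2 fold change (57.9%, against 52.5% of all genes tested). Acta2, the smooth muscle actin of stellate cells and vessel walls, differed by mouse number in both diets. It stood at 3.23 to 7.97 CPM in HFHS mice 6HF1 to 6HF4 and 12.5 to 18.7 CPM in the 3 RC mice with low numbers, and at 12.2 to 23.2 CPM in HFHS mice and 29.3 to 30.7 CPM in RC mice numbered 75 or higher.

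The promoter of Tef is shown for the E-box through which the core activators of the clock act, in capitals, on build GRCm38.p6 at chr15:81802423-81802722, plus strand, in the direction of the gene, with sequence from RefSeq.
Tef: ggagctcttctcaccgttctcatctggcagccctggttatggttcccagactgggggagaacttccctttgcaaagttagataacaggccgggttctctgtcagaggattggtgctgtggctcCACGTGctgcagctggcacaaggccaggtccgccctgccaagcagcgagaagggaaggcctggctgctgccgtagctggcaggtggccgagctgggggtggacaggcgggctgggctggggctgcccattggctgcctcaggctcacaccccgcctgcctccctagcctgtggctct
The E-box CACGTG was present in 5 of the 16 clock genes with a promoter (Per1, Cry1, Tef, Bhlhe41 and Gm129), against 8.09% of all promoters. The D-box TTATGTAA, the element that Tef and its relatives bind, was present in 1 of 16 (Per3), against 1.11%.

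No hormone gene of the islet was called, and the diets overlapped for each. Ins1 ran from 64300 to 103100 CPM in HFHS mice (median 73380) and was 87340, 100400, 76960, 66880 and 75430 CPM in RC mice, with a log2 difference of -0.08 (SE 0.12). Ins2 ran from 104000 to 174500 CPM in HFHS mice (median 113900) and was 147100, 171900, 125800, 104400 and 115600 CPM in RC mice, with a log2 difference of -0.11 (SE 0.15). Insulin genes took 19.7% of reads on average in HFHS mice and 21.6% in RC mice, a difference of -1.89 percentage points with a two-sided exact permutation p of 0.205. Gcg, Sst and Ppy, the hormone genes of alpha, delta and PP cells, had log2 differences of -0.17 (SE 0.16), -0.21 (SE 0.10) and -0.16 (SE 0.36). That of Ppy was -0.0013 without 6HF1 and -0.31 without 6RC4. Elovl2, the fatty acid elongase named in the title of the series, ran from 33.0 to 42.9 CPM in HFHS mice (median 39.7) and was 42.01, 37.5, 40.5, 40.8 and 41.1 CPM in RC mice, with a log2 difference of -0.04 (SE 0.06, edgeR adjusted p 0.914).

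Identity genes of alpha and beta cells mostly had lower estimates on HFHS, while those of delta and PP cells were 4 of 8 positive (median 0.01). Kcnj11, the pore of the ATP-sensitive potassium channel, ran from 127.3 to 147.6 CPM in HFHS mice (median 136.2) and from 145.3 to 165.1 CPM in RC mice. Its log2 difference was -0.19 (SE 0.05, edgeR adjusted p 0.430). The transcription factors Foxa2 and Nkx6-1 had log2 differences of -0.22 (SE 0.07) and -0.21 (SE 0.07), with 7 and 6 of 8 HFHS mice below the RC range. All 10 alpha cell genes had a negative log2 fold change (median -0.24) and 19 of 24 beta cell genes did (median -0.07), with 0 called in either, and without 6HF1 it was 10 of 10 and 16 of 24. Summed alpha cell markers ran from 43660 to 71470 CPM in HFHS mice (median 50425) and were 66150, 64650, 70280, 51570 and 52890 CPM in RC mice, which overlap (two-sided exact permutation p 0.131). Inhbb, the beta B subunit of activins and inhibins, ran from 2.82 to 6.97 CPM in HFHS mice (median 4.58) and was 3.66, 1.83, 3.47, 2.74 and 2.21 CPM in RC mice, with a log2 difference of 0.74 (SE 0.21) and 7 of 8 HFHS mice above the RC range.

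Markers of other cells in the preparation differed among libraries, and those of stellate cells had higher medians in mice with high numbers on both diets. All 12 stellate cell and fibroblast genes had a negative log2 fold change (median -0.53), and their sum ran from 535 to 1330 CPM in HFHS mice (median 955) and was 1034, 702, 861, 2215 and 2160 CPM in RC mice. Among HFHS mice, those numbered 75 or higher were at 876 to 1330 CPM and 6HF1 to 6HF4 at 535 to 1034 CPM. The 2 highest sums, in 6RC75 and 6RC78, are those of the RC mice with high numbers, and the RC mice with low numbers were at 702 to 1034 CPM. The collagen gene Col1a1 had 23.6 to 110 CPM in HFHS mice, against 196 and 202 CPM in 6RC75 and 6RC78. Of 12 macrophage genes 11 had a negative log2 fold change (median -0.39), and their sum was at most 257 CPM in HFHS mice, against 321 and 357 CPM in the same 2 RC mice and 144.5 to 196 CPM in the other 3, which lie within the HFHS range. All 9 lymphocyte genes tested had a positive one (median 1.42, and 1.03 without 6HF1). Their sum, however, had a median of 23.1 CPM in HFHS mice and 24.4 CPM in RC mice. Its log2 difference was 0.48 over the 13 libraries and -0.0018 without 6HF86. Antigen presentation genes were positive in 14 of 14 (median 0.34), and in 11 of 14 without 6HF1 (median 0.06). Their sum had a median of 945 CPM in HFHS mice and 1030 CPM in RC mice, with 2642 CPM in 6HF1 and 2051 CPM in 6HF86. Over the insulin share and 11 summed marker lists, no two-sided exact permutation test gave a Benjamini-Hochberg adjusted p below 0.329. The part of these cells in the diet differences was not tested.

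Whether the diet effect at day 2 differed from that at later days was tested over all 129S2/SvPas libraries (60, of which 47 at days 10, 30 and 90). Each day had its own RC mice. Adcy1 and Accn1 differed, both lower at day 2, and they were 2 of 15570 genes called by edgeR (0.0128%), with 486 (3.12%) at an unadjusted p under 0.05, 1.82% higher and 1.3% lower. Adcy1 makes cAMP and is stimulated by calcium. Its mean level on HFHS was 19.3 ± 6.25, 27.01 ± 4.95, 21.6 ± 6.90 and 23.0 ± 9.65 CPM at days 2, 10, 30 and 90 (SD, n = 8, 6, 7 and 10, not scaled by TMM). On RC it was 16.3 ± 6.21, 8.22 ± 0.507, 6.90 ± 1.76 and 4.67 ± 0.873 CPM (SD, n = 5, 5, 8 and 11). At day 2 the HFHS mice, at 11.2 to 30.6 CPM, thus overlapped the RC mice, at 7.19 to 23.8 CPM, while the RC mice of later days lay at or below 9.42 CPM. The log2 diet effect was 0.28, 1.64, 1.63 and 2.27 at days 2, 10, 30 and 90, and day 2 minus the mean of the others was -1.57 (SE 0.24, edgeR adjusted p 0.000508).

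Accn1 was lower on HFHS at day 2 and higher at day 90. It stood at 7.46 ± 1.09 CPM on HFHS and 11.01 ± 1.29 CPM on RC at day 2 (SD, n = 8 and 5), and at 15.8 ± 2.32 CPM on HFHS and 12.1 ± 1.97 CPM on RC at day 90 (SD, n = 10 and 11). Its log2 diet effect was -0.53, 0.02, 0.30 and 0.41 over the 4 days, and the difference was -0.77 (SE 0.14, edgeR adjusted p 0.00896). Accn1 was not called after a GC curve per library or without 6RC78, when Adcy1 alone was. The activity-induced genes had log2 diet effects of 1.20, -0.21, 0.56 and 0.06 for Sik1 and 1.95, 0.33, 1.11 and 0.02 for Nr4a1 over the 4 days, but the difference of day 2 from the rest was not called for either (Nr4a1 1.46, SE 0.46, edgeR adjusted p 1). Fkbp5 had effects of -0.66, 0.31, 0.10 and -0.19, and Cpt1a of 0.38, 0.97, 0.63 and 0.39. In the same fit 0, 7, 20 and 61 genes were called for diet at days 2, 10, 30 and 90 (0%, 0.045%, 0.128% and 0.392%), with different numbers of mice. Of all genes, 0.0193% were called higher and 0.0257% lower at day 10, 0.0899% higher and 0.0385% lower at day 30, and 0.206% higher and 0.186% lower at day 90.

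**Figure D4:**
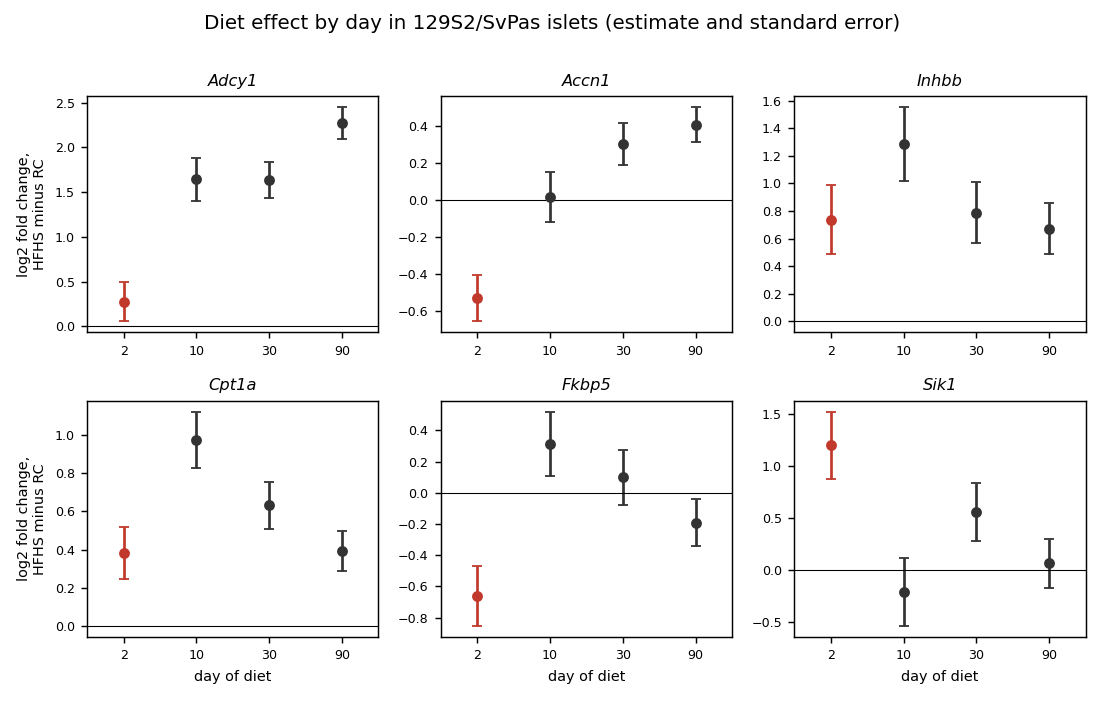
Log2 diet effect (HFHS minus RC, with its standard error) at days 2, 10, 30 and 90 in 129S2/SvPas for 6 genes, day 2 in red. Adcy1 stands at 0.28 at day 2 and at 1.63 or higher at the later days, and Accn1 passes from -0.53 at day 2 to 0.41 at day 90.

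Whether the day 2 effect differed from that of other strains was tested over the day 2 libraries of 4 strains. BALB/cJ and A/J also have day 2 libraries, which were not used. The strains set beside 129S2/SvPas were chosen, from earlier results of these data, as largely free of a GC shift of libraries. The result thus covers these strains only. Compared with the mean of C57Bl/6J, DBA/2J and AKR/J, 9 of 15524 genes (0.058%) differed in edgeR, 2 higher (0.0129%) and 7 lower (0.0451%) in 129S2/SvPas, and 2046 (13.2%) were at an unadjusted p under 0.05, 8.26% higher and 4.92% lower. Insig1 had a log2 diet effect of 0.20 in 129S2/SvPas and of -0.34, -0.14 and -0.35 in C57Bl/6J, DBA/2J and AKR/J, a difference of 0.48 (SE 0.09, edgeR adjusted p 0.0230). Its level was 89.3 ± 5.13 CPM on HFHS and 79.6 ± 6.20 CPM on RC in 129S2/SvPas (SD, n = 8 and 5), and 104.3 ± 7.29 CPM on HFHS and 133.5 ± 8.40 CPM on RC in C57Bl/6J (SD, n = 6 each, not scaled by TMM). Fkbp5 had an effect of -0.66 in 129S2/SvPas and of 0.15, 0.60 and 0.09 in the same 3 strains, a difference of -0.94 (SE 0.18, edgeR adjusted p 0.0230). The HFHS mice averaged 91.4 CPM of Fkbp5 in 129S2/SvPas and 92.9, 102.3 and 68.4 CPM in the other strains. The RC mice stood at 145.5 ± 34.97 CPM in 129S2/SvPas (SD, n = 5), above the means of the other strains, which were 84.2, 67.3 and 70.9 CPM.

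The other 7 were Fam113b (0.69, SE 0.14), Kcnk3, a background potassium channel (-0.58, SE 0.11), the centriole protein gene Mdm1 (-0.80, SE 0.16), Ror2, a receptor for Wnt5a (-0.36, SE 0.07), Fam20c, the kinase of secreted proteins (-0.27, SE 0.06), Tle1 (-0.49, SE 0.10) and the olfactory receptor gene Olfr558 (-0.74, SE 0.15). Olfr558 lies under the level set for naming genes, a mean of 5 CPM, and was named because it completes the count. Mdm1 stood at 74.6 to 99.2 CPM in HFHS mice and 87.5 to 178 CPM in RC mice, with 6RC1 highest, as it was for Fkbp5.

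The number of calls changed when single libraries were left out. The count was 0 without 6HF1, without 6RC1 or without 6RC4, with the 9 differences keeping their signs. In these fits that of Fkbp5 was -0.91, -0.80 and -0.94 (adjusted p 0.0594, 0.167 and 0.0791) and that of Insig1 0.47, 0.47 and 0.46 (adjusted p 0.0594, 0.167 and 0.109). It was also 0 without AKR/J, and 14, 18, 17 and 34 without 6HF3, 6HF4, 6HF90 and 6RC75. In the same fit 33 genes (0.213%, with 10 higher, 0.0644%, and 23 lower, 0.148%) were called for diet at day 2 in 129S2/SvPas, against 171 (1.1%, of which 0.702% lower) in C57Bl/6J, 21 (0.135%, of which 0.0902% lower) in DBA/2J and 4349 (28%) in AKR/J. The GC slope of the AKR/J libraries was -0.0136 to 0.299 on HFHS and 0.201 to 0.316 on RC. The part of GC content in the AKR/J calls was not tested. For the comparison of 129S2/SvPas with the other strains, a GC curve per library gave a count of 15, all 9 genes among them.

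Plk3, Sik1 and Npas4 did not pass in this comparison. Their log2 effects in 129S2/SvPas, C57Bl/6J, DBA/2J and AKR/J were 0.50, -0.14, 0.29 and 0.37 for Plk3, 1.21, -0.10, -0.50 and 0.26 for Sik1, and 1.52, 0.76, -0.33 and -0.83 for Npas4. The edgeR adjusted p-values of the differences were 0.284, 0.176 and 0.115. Rbm25 had effects of 0.37, 0.06, 0.02 and -3.2e-05, with an adjusted p of 0.0638 for the difference. That fit called Rbm25 for diet in 129S2/SvPas (adjusted p 0.00972), along with Fkbp5 (0.0443), Tle1 (0.0376), Ror2 (0.0108) and Olfr558 (0.00841).

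**Figure D5:**
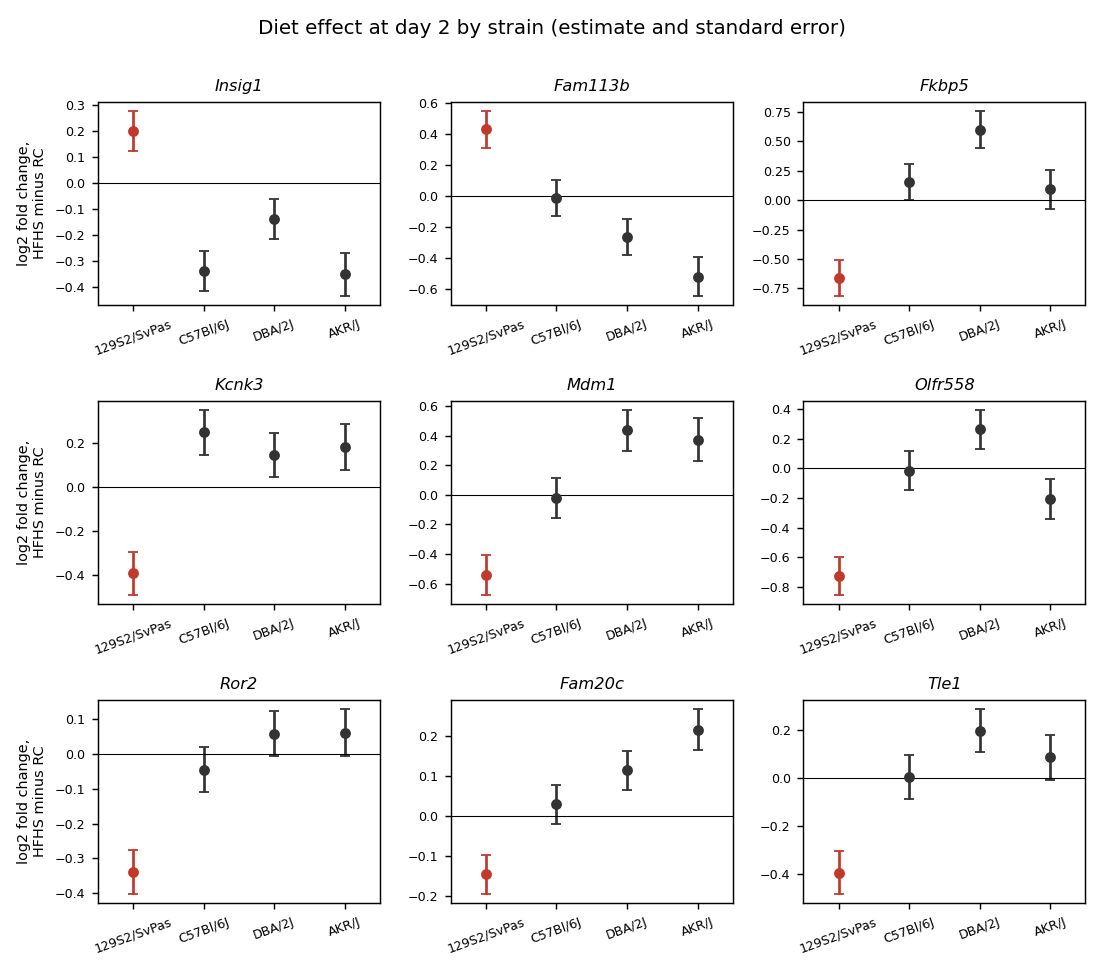
Log2 diet effect at day 2 (HFHS minus RC, with its standard error) in 4 strains for the 9 genes whose effect in 129S2/SvPas differed from the mean of the other 3, 129S2/SvPas in red. Insig1 and Fam113b lie above 0 in 129S2/SvPas and at or below 0 in the others, and the other 7 genes lie below 0 in 129S2/SvPas.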

How the data were processed

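Islets (at least 150 per library) gave 200 ng of total RNA for unstranded poly(A) libraries, per the labels' protocols. Per the submitters' processing notes, the build was mm9 and the tools included HTSeq 0.5.3p3, edgeR (its version is not given in the sources used here), SAMtools 0.1.16 and TopHat 1.3.3. The deposited table holds raw read counts of 21382 genes, and a second deposited table holds log2 values normalized by the authors. Groups follow the labels. Counts were tested with edgeR 4.0.16 (quasi-likelihood, robust, TMM, filterByExpr, prior count 2) in R 4.3.3, with Benjamini-Hochberg adjustment and a threshold of 0.05. DESeq2 1.42.0 and limma 3.58.1, on the counts and on the authors' log2 values, were alternatives. DESeq2 kept its default replacement of outlying counts. Scripts were tested on simulated data. Interactions compared diet effects at day 2 with those of later days or other strains. Named genes were the hormone genes and Elovl2, up to 6 per list by lowest p, and up to 10 per interaction with a mean of at least 5 CPM, and others are marked in the text. Some genes that the rule names are not reported here. Members and lists were chosen with earlier results of these data known. No source says that mice came from separate cages or collection days, so p-values measure the spread between these mice. Each of 38 pairs within groups differed by more than sampling noise (lowest chi-square per degree of freedom 15.6), so none was treated as a copy of another. Intervals and floors cover counting error only.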

Additional observations from a re-analysis of the deposited data

Results flagged for a closer look

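Single libraries lay far from the rest of their group in 8 of 184 groups of values examined, and chance alone flags about 1 in 20. Mouse 6HF1 had 34.6 CPM of Fbp2 and 156.1 CPM of Fam20c. Mouse 6HF2 had 49.8 CPM of Clk4, 6HF86 had 42.2 CPM of Tle1, and 6HF4 had 39.1 CPM of Mt2 and 13140 CPM summed over acinar genes. Mouse 6RC78 had 96.1 CPM of Aldh9a1 and 577 CPM summed over duct genes.

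The diet effect at day 2 differed from the mean of days 10, 30 and 90 by -1.57 for Adcy1 and -0.77 for Accn1 (log2, edgeR adjusted p 0.000508 and 0.00896). It differed from the mean of C57Bl/6J, DBA/2J and AKR/J by 0.69 for Fam113b, 0.48 for Insig1, -0.27 for Fam20c, -0.94 for Fkbp5, -0.58 for Kcnk3, -0.80 for Mdm1, -0.74 for Olfr558, -0.36 for Ror2 and -0.49 for Tle1 (log2, edgeR adjusted p 0.0230 to 0.0364). None of the 9 strain differences was called without 6HF1, without 6RC1, without 6RC4 or without AKR/J. Accn1 was not called after a GC curve per library or without 6RC78.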

How the results depend on the processing

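The count of 0 genes for diet was the same in all 13 fits that left out 1 library and under every other alternative except 4: DESeq2 (62 genes), DESeq2 without 6HF1 (37), a fit over all 48 groups (2) and a fit over the day 2 libraries of 4 strains (33). The alternatives without 6HF1, the 4-strain fit and the fits without AKR/J or 6HF99 were chosen after seeing the data. Leaving out 1 library gave 1 to 2 genes for the comparison with later days and 0 to 34 for that with other strains, and a GC curve per library gave 1 and 15. Without AKR/J the strain count was 0. With the mouse number as a replicate block 0 genes were called for diet. That fit draws the diet effect only from the 3 numbers present on both diets, so its count says little. The fits within mice numbered 1 to 4 (4 HFHS, 3 RC) and 75 or higher (4 HFHS, 2 RC) held few mice. The fit of all 18 libraries held the 5 left out, which differ widely from the rest. The counts of 0 in these fits say little either. Deviations of mice sharing a number correlated at -0.26, -0.33 and -0.33 (3 pairs), and no mouse correlated best with its own number, so numbers were not taken as pairs. Of 2817 values of 80 named genes, 2657 kept their direction and side of the threshold, 54 lost a call, 68 gained one and 38 changed sign. The cause of these changes was not tested. The values pool diet effects with the differences from later days or other strains of the genes called there. No gene was called for diet in the main fit, so all 54 lost calls were among those differences. For a diet effect, keeping its side of the threshold meant only staying uncalled.

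With all 18 libraries as labelled the log2 difference was -0.093 for Gnl3, -0.12 for Edem1, -0.12 for Hlf, -0.14 for Dnajb9, -0.15 for Slc25a20, -0.16 for Nop58, -0.16 for Insig1, -0.21 for Fos, -0.21 for Sqle, -0.26 for Cyp51, -0.33 for Luc7l2, -0.33 for Rbm25, -0.40 for Srsf11, -0.46 for Ccnl1, -0.51 for Etfa, -0.52 for Clk4, -0.53 for Hadhb and -0.74 for Clk1. It was 0.063 for Rxra, 0.069 for Pdgfrb, 0.14 for Eng, 0.15 for Kcnj11, 0.15 for Fam20c, 0.16 for Ppy, 0.18 for Nkx6-1, 0.26 for Ins2 and 0.31 for Ins1. Within mice numbered 75 or higher it was -0.0036 for Per3, 0.0023 for Ppy, 0.11 for Ins1, 0.11 for Ube2c, 0.15 for Ins2 and 0.19 for Gcg. Without 6HF1 it was -0.78 for Cd3e in DESeq2 (2.23 in edgeR), 0.034 for Ppy in voom and 0.0065 for Ins1 with the number set as a covariate. Leaving out 1 library, the log2 difference was -0.15 to 0.011 for Ins1 and -0.20 to 0.0017 for Ins2, the insulin share differed by -2.62 to -0.829 percentage points, and log2 sums by -0.39 to 0.073 for acinar, -0.042 to 0.075 for duct, -0.0018 to 0.90 for lymphocyte and -0.063 to 0.16 for adipocyte genes.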
